A study of Arabidopsis thaliana with 8 samples.

Results

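The chloroplast keeps a small genome of its own, and the genes described here are its photosynthesis and polymerase genes in leaves of Arabidopsis thaliana. A probe set (the group of probes that the array reads as 1 value) was taken when it is annotated to exactly 1 gene of the plastid genome whose symbol begins with psa, psb, pet, ndh or rpo, or is atpA, atpB, atpE, atpF, atpH, atpI or rbcL. This gave 47 genes, each on 1 probe set, of the 22746 probe sets tested. They are 15 genes of photosystem II, 5 of photosystem I, 6 of the cytochrome b6f complex, 6 of the ATP synthase, 10 of the NADH dehydrogenase-like (NDH) complex, 4 of the plastid RNA polymerase and rbcL for Rubisco. The annotation holds 48 such genes. The remaining one, ndhB, was left out because its probe set is annotated to both gene copies.

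The study compared 4 groups of 2 arrays each. Col wild type had 0 or 100 mM NaCl (Col 0 mM, Col 100 mM), and so had M6PR, a transgenic line that carries the celery gene for mannose-6-phosphate reductase, through which celery makes mannitol (M6PR 0 mM, M6PR 100 mM). Salt began on day 14 after sowing and rose in steps of 50 mM. On day 20 developed leaves without visible senescence were pooled from 15 or more seedlings, and each group had 2 replicate pots. The descriptions of the M6PR samples name Ws as the accession and those of the controls Col, so transgene and accession cannot be told apart in a comparison of lines. The promoter of the transgene and the number of lines used are not given in the sources used here. The Col arrays are stated to be the same data as arrays of another series, so line and array batch cannot be told apart either. All values are log2 intensities, where 1 unit is a 2-fold difference, and the 2 arrays per group limit the precision.

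Plastid genes are transcribed by a bacterial-type polymerase, whose core is encoded in the plastid by rpoA, rpoB, rpoC1 and rpoC2 and which needs nuclear sigma factors, and by a phage-type polymerase encoded in the nucleus. The first is the main enzyme for photosystem genes, while the second is known for transcribing the rpoB cluster and accD. Many plastid genes lie in clusters that are read as 1 long RNA and then cut into smaller ones, and most plastid transcripts lack the long poly(A) tails of nuclear mRNA. The primer used for labelling these RNAs is not given in the sources used here, and no sequences are shown because none were at hand for these genes.

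Of the 47 genes, 45 had a mean over the arrays above a log2 level of 4, which was taken as background. The other 2, petD (subunit IV of the cytochrome b6f complex) and ndhF (a membrane subunit of NDH), lay at or near the lowest value of the table, 2.15, on every array (highest 2.16 for petD and 2.20 for ndhF) and cannot show a change. In whole leaves, fewer chloroplasts or cells and less RNA per chloroplast cannot be told apart. The probe sets also cannot tell a plastid transcript from that of a similar copy elsewhere in the genome.

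Several arrays stood apart before any comparison. Col 100 mM replicate 1 correlated with its own replicate at 0.984 over the 22746 probe sets, while the Col 0 mM replicates correlated at 0.997 and those of M6PR 0 mM at 0.994. Col 100 mM replicate 2 correlated more closely with M6PR 100 mM replicate 2 (0.991). M6PR 100 mM replicate 1 correlated more closely with M6PR 0 mM replicate 1 (0.983) than with its own replicate (0.982). The same held for M6PR 100 mM replicate 2 with M6PR 0 mM replicate 2 (0.988), so these values do not tell which salted M6PR array stood apart. Below, Col 100 mM replicate 1 and M6PR 100 mM replicate 1 are called the arrays that stood apart, a choice made after the data were seen. RCA, the Rubisco activase gene that marks leaf tissue, lay between 14.52 and 14.82 on all arrays. That is near the top of the scale, so its even level says little about leaf content. PYK10, a beta-glucosidase gene known mainly from roots, stood at 2.22 and 2.32 in Col 0 mM, 10.28 and 7.51 in Col 100 mM, 2.82 and 2.15 in M6PR 0 mM, and 2.83 and 6.27 in M6PR 100 mM. SAG101, a senescence marker, read 5.29 and 5.15, then 5.38 and 5.48, then 6.74 and 6.32, then 5.45 and 5.48 in the same order, so it was highest in M6PR 0 mM. These are the 3 of 15 listed cell type markers with a probe set of their own, and their part in the results below was not tested.

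The genes differed most between the salted replicates of the wild type, and far less between the replicates of any other group. Of the 45 genes above background, 40 had their lowest value of all arrays on Col 100 mM replicate 1, and 19 had their highest on Col 100 mM replicate 2. In 31 of the 47 genes replicate 1 lay more than 1 log2 unit below replicate 2, which is 66%, against 3.67% of all probe sets. The median difference over the 45 genes was −2.58, and over all probe sets it was 0, with −0.82 at the percentile of 5 and 0.76 at that of 95. A test cannot be made on 2 arrays, so these differences are described without one.

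**Figure D1:**
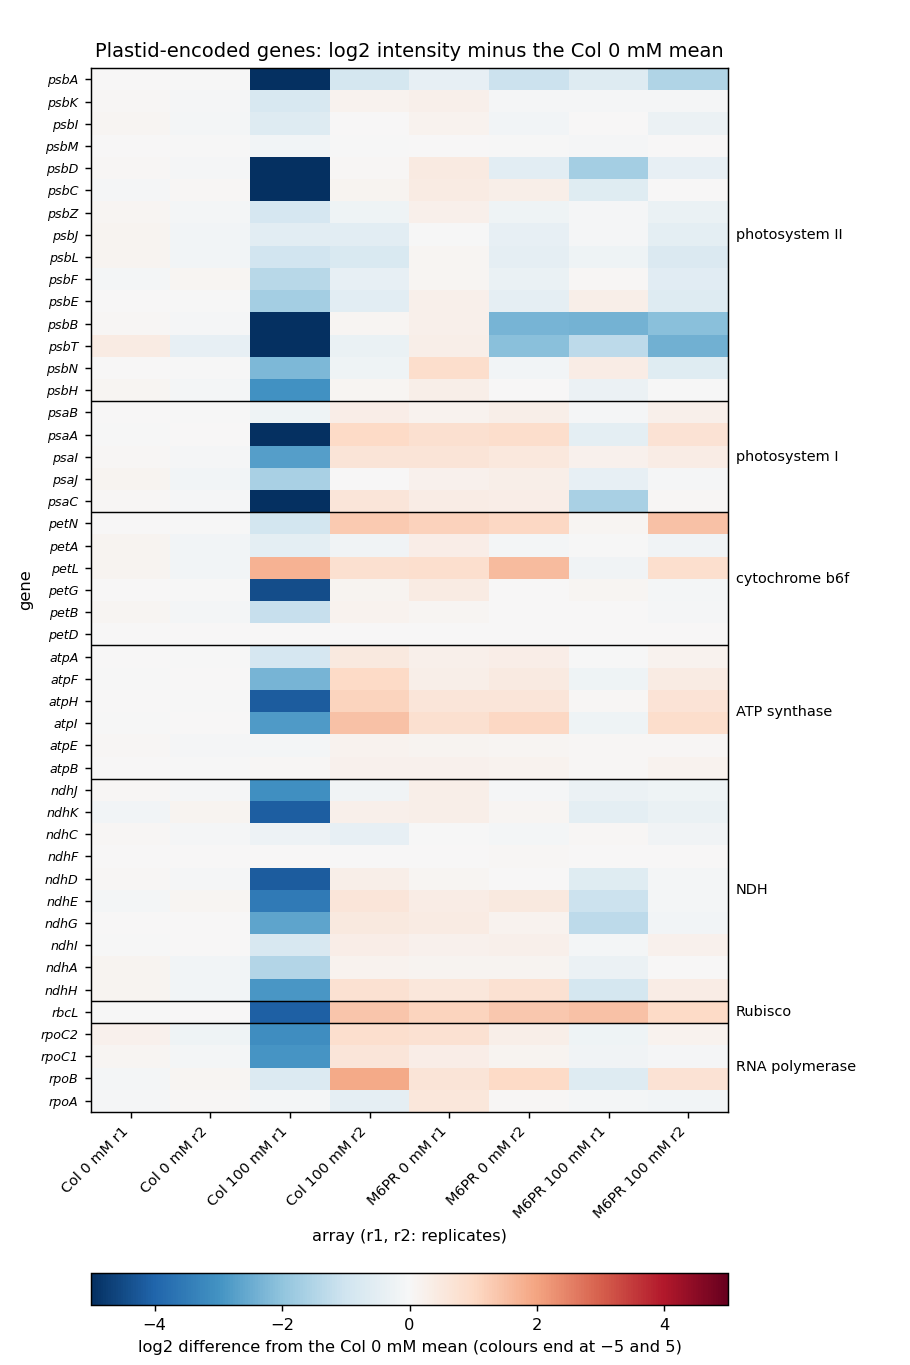
Log2 intensity of the 47 genes (rows, by complex) on the 8 arrays (columns), minus the mean of the Col 0 mM replicates of the same gene; blue is lower, red is higher, and colours end at −5 and 5. Col 100 mM replicate 1 is the blue column, with psaA at −9.91, while Col 100 mM replicate 2 lies within −0.88 and 1.90 of the Col 0 mM mean.

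Among the photosystem I genes, psaA (a reaction centre core subunit) read 12.27 and 12.33 in Col 0 mM, 2.39 and 13.30 in Col 100 mM, 13.11 and 13.19 in M6PR 0 mM, and 11.82 and 13.02 in M6PR 100 mM. It was near the floor on 1 salted wild-type array and at its highest value of all arrays on the other. Replicate 2 was thus at least 629.7-fold above replicate 1, counted against the background level, and of all 22746 probe sets psaA had the most negative difference. Its neighbour psaB, which encodes the partner core subunit, read 13.91 and 14.44 on the same pair of arrays and lay between 14.05 and 14.41 on the other arrays. The difference for psaB was −0.52, so adjacent genes of the same complex differed by very unequal amounts. For psaC, the iron-sulphur subunit, the salted wild-type arrays read 4.07 and 9.82, a 53.8-fold difference, against 9.26 and 9.14 in Col 0 mM, 9.58 and 9.54 in M6PR 0 mM, and 7.59 and 9.25 in M6PR 100 mM. The low array of psaC was again replicate 1 in both salted groups. The small subunits psaI and psaJ differed by 10.4-fold and 3.09-fold in the same direction.

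The photosystem II genes covered a wide range of differences between the salted wild-type replicates, from genes near background on replicate 1 to genes with nearly equal values. For psbA, which encodes the D1 reaction centre protein, the arrays read 11.92 and 11.88 in Col 0 mM, 4.99 and 11.02 in Col 100 mM, 11.50 and 10.82 in M6PR 0 mM, and 11.25 and 10.39 in M6PR 100 mM. The single low array was 65.5-fold below its replicate. For psbD, the D2 protein, the values were 11.45 and 11.37, then 3.78 and 11.46, then 11.86 and 10.87, then 9.71 and 11.01 in the same order of groups. Again replicate 1 of Col 100 mM stood alone, at least 176-fold below replicate 2, and M6PR 100 mM replicate 1 was the next lowest. The antenna protein gene psbC (CP43) read 12.39 and 12.47, then 5.06 and 12.55, then 12.85 and 12.72, then 11.81 and 12.45, with 1 low array. The other antenna protein gene psbB (CP47) read 11.27 and 11.14, then 3.70 and 11.31, then 11.45 and 8.89, then 8.84 and 9.13. Besides the low array, 3 of the 4 M6PR arrays of psbB lay more than 2 log2 units below the Col 0 mM arrays. The small subunit gene psbT, which lies next to psbB, was lower than in Col 0 mM on the same 3 M6PR arrays, at 9.82 and 9.01, then 2.92 and 9.08, then 9.69 and 7.31, then 8.09 and 6.99. At the other end, the small subunit genes psbJ, psbL and psbM differed by 0.02, −0.17 and −0.12. For psbM all 8 arrays lay between 14.42 and 14.59, near the top of the scale. The remaining 7 genes of the complex (psbE, psbF, psbH, psbI, psbK, psbN and psbZ) lay between, from −0.62 for psbZ to −3.15 for psbH.

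In the cytochrome b6f complex, which passes electrons between the photosystems, the genes differed in sign. The cytochrome b6 gene petB read 14.40 and 14.24 in Col 0 mM, 13.16 and 14.50 in Col 100 mM, 14.42 and 14.35 in M6PR 0 mM, and 14.33 and 14.27 in M6PR 100 mM. All arrays but the low one lay between 14.24 and 14.50. The small subunit gene petG differed most in this complex, with 7.39 and 7.37 in Col 0 mM against 2.94 and 7.52 in Col 100 mM, at least 11.5-fold between the salted replicates. In M6PR petG ranged from 7.27 to 7.77. The small subunit gene petL was the opposite case, with 9.03 and 8.72 in Col 0 mM, 10.62 and 9.66 in Col 100 mM, 9.72 and 10.47 in M6PR 0 mM, and 8.71 and 9.73 in M6PR 100 mM. It was the gene with its highest value on Col 100 mM replicate 1, the array where most others were lowest. Cytochrome f (petA) differed by −0.32 and petN, another small subunit, by −2.24 between the salted wild-type arrays.

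The ATP synthase genes lie in 2 clusters. The beta and epsilon subunits of the catalytic part, atpB and atpE, are neighbours, and both read near the top of the scale. For atpB the arrays read 14.66 and 14.61 in Col 0 mM, 14.69 and 14.85 in Col 100 mM, 14.86 and 14.79 in M6PR 0 mM, and 14.69 and 14.80 in M6PR 100 mM. All arrays of atpB thus lay between 14.61 and 14.86, and the salted wild-type arrays lay above both unsalted ones. When each array was centred on its median, the mean change of atpB with salt in Col turned from 0.14 to −0.08. In the other cluster, atpH (the ring subunit of the membrane part) read 11.54 and 11.50, then 7.36 and 12.65, then 12.14 and 12.13, then 11.58 and 12.19. It was lowest on replicate 1 of Col 100 mM and highest on replicate 2, 39.2-fold apart. Its neighbours atpI, atpF and atpA differed by −4.32, −3.30 and −1.32. For atpF (a stalk subunit) the arrays read 11.91 and 11.91, then 9.59 and 12.90, then 12.22 and 12.36, then 11.71 and 12.32. As for atpH, the salted wild-type arrays held both the lowest and the highest value.

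The NDH complex carries electrons back around photosystem I, and 8 of its 9 measured genes were over 1 log2 unit lower on Col 100 mM replicate 1 than on replicate 2. The gene ndhK read 9.31 and 9.56 in Col 0 mM, 5.31 and 9.70 in Col 100 mM, 9.74 and 9.53 in M6PR 0 mM, and 8.95 and 9.11 in M6PR 100 mM. Its salted wild-type replicates were 21.0-fold apart, and all other arrays lay between 8.95 and 9.74. The differences were −4.47 for ndhD, −4.14 for ndhE, −3.66 for ndhH, −3.12 for ndhG, −2.88 for ndhJ, −1.61 for ndhA and −1.14 for ndhI. For ndhD the arrays read 12.62 and 12.49, then 8.40 and 12.86, then 12.66 and 12.59, then 11.95 and 12.47. For ndhH they read 8.88 and 8.64, then 5.86 and 9.52, then 9.31 and 9.51, then 7.87 and 9.14. In both genes the salted replicate 1 was the lowest array of either line. The exception was ndhC, which lies beside ndhK, at 13.05 and 12.94, then 12.74 and 12.58, then 12.97 and 12.89, then 13.04 and 12.80.

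Rubisco's large subunit gene rbcL read 9.17 and 9.21 in Col 0 mM, 5.11 and 10.58 in Col 100 mM, 10.29 and 10.55 in M6PR 0 mM, and 10.67 and 10.19 in M6PR 100 mM. Replicate 1 of the salted wild type was 44.3-fold below replicate 2, and every other array outside Col 0 mM lay above both Col 0 mM arrays. The group mean was 9.19 ± 0.03 (SD, n = 2) in Col 0 mM, 7.85 ± 3.87 in Col 100 mM, 10.42 ± 0.18 in M6PR 0 mM and 10.43 ± 0.34 in M6PR 100 mM. Of the polymerase genes, rpoC2 read 9.35 and 8.92, then 6.03 and 9.98, then 9.88 and 9.44, then 8.91 and 9.33 in the same order of groups. For rpoC1 the values were 10.98 and 10.78, then 7.92 and 11.47, then 11.22 and 11.02, then 10.71 and 10.82. Both subunit genes had the pattern of rbcL in Col, with 1 low array and 1 array above the unsalted pair. The catalytic subunit gene rpoB was dim, at 4.17 and 4.38 in Col 0 mM, 3.60 and 6.18 in Col 100 mM, 4.92 and 5.28 in M6PR 0 mM, and 3.65 and 5.02 in M6PR 100 mM. Values under 4 are bounds, and the highest level of rpoB was again on Col 100 mM replicate 2. The alpha subunit gene rpoA, which lies in a different cluster, read 12.21 and 12.32, then 12.17 and 11.84, then 12.84 and 12.32, then 12.15 and 12.14. It did not share the low value of the other subunit genes.

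**Figure D2:**
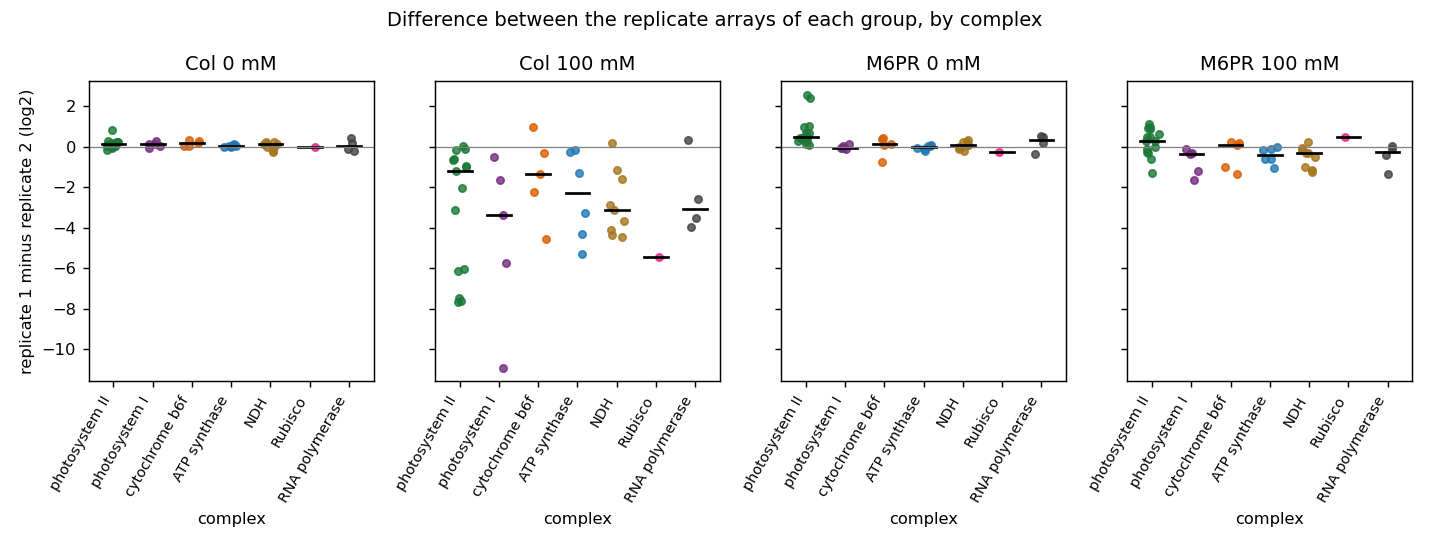
Replicate 1 minus replicate 2 (log2, vertical axis) for the 45 genes above background in each group, by complex; points are genes and bars are medians. In Col 100 mM the complex medians reach −5.47 for Rubisco, and in the other groups every complex median lies between −0.39 and 0.48.

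By complex, the median difference between the salted wild-type replicates was −1.19 for photosystem II, −3.38 for photosystem I, −1.34 for cytochrome b6f, −2.31 for the ATP synthase, −3.12 for NDH and −3.06 for the polymerase. In the other groups the medians over the 45 genes were near 0: 0.08 in Col 0 mM, 0.11 in M6PR 0 mM and −0.16 in M6PR 100 mM. The last turned to 0.036 when each array was centred on its median. In Col 0 mM 0 genes were over 1 log2 unit lower on replicate 1 (0.308% of all probe sets), and in M6PR 0 mM also 0 (1.17% of all). In M6PR 0 mM 2 genes were over 1 log2 unit higher on replicate 1 (1.12% of all). They were the neighbours psbB, at 11.45 and 8.89, and psbT, at 9.69 and 7.31. In M6PR 100 mM 9 of the 47 genes, or 19.1%, were over 1 log2 unit lower on replicate 1 (5.79% of all), with psaC lowest at 7.59 against 9.25. M6PR 100 mM replicate 1 was thus on the low side for some of the genes that were low on Col 100 mM replicate 1. Among them were psaA, psaC and psbD, but by 2.29-fold to 3.17-fold. Across the 45 genes the difference in M6PR 100 mM and that in Col 100 mM, measured on separate arrays, correlated at 0.32 (Pearson) and 0.35 (Spearman). The difference in M6PR 100 mM correlated more closely with that in unsalted M6PR 0 mM, at 0.44 (Pearson) and 0.57 (Spearman). Over all probe sets these Pearson values were −0.15 with Col 100 mM and 0.49 with M6PR 0 mM. Genes read on the same array are not independent replicates.

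Neighbouring genes often differed by like amounts, but with steps inside clusters. Along psbB, psbT, psbH and petB, which are read together, the difference between the salted wild-type replicates went from −7.61 to −6.16, −3.15 and −1.34. In the psbD cluster psbD and psbC were at −7.68 and −7.50 and psbZ at −0.62, and in the psbE cluster psbE, psbF, psbL and psbJ were at −1.19, −0.96, −0.17 and 0.02. In the rpoB cluster the values were −2.58 for rpoB, −3.55 for rpoC1 and −3.95 for rpoC2. In the cluster from ndhH to ndhD all 7 genes were lower on replicate 1, from −1.14 (ndhI) to −5.75 (psaC). Large steps lay between psaA (−10.91) and psaB (−0.52), between psbC and psbZ, and between ndhC (0.16) and ndhK (−4.39). The differences of psaA, psbB, psbT, psbD, rpoB, atpI and ndhG are not exact, since replicate 1 was below background. Because psaB also lay near the top of the scale, the steps were not ranked.

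**Figure D3:**
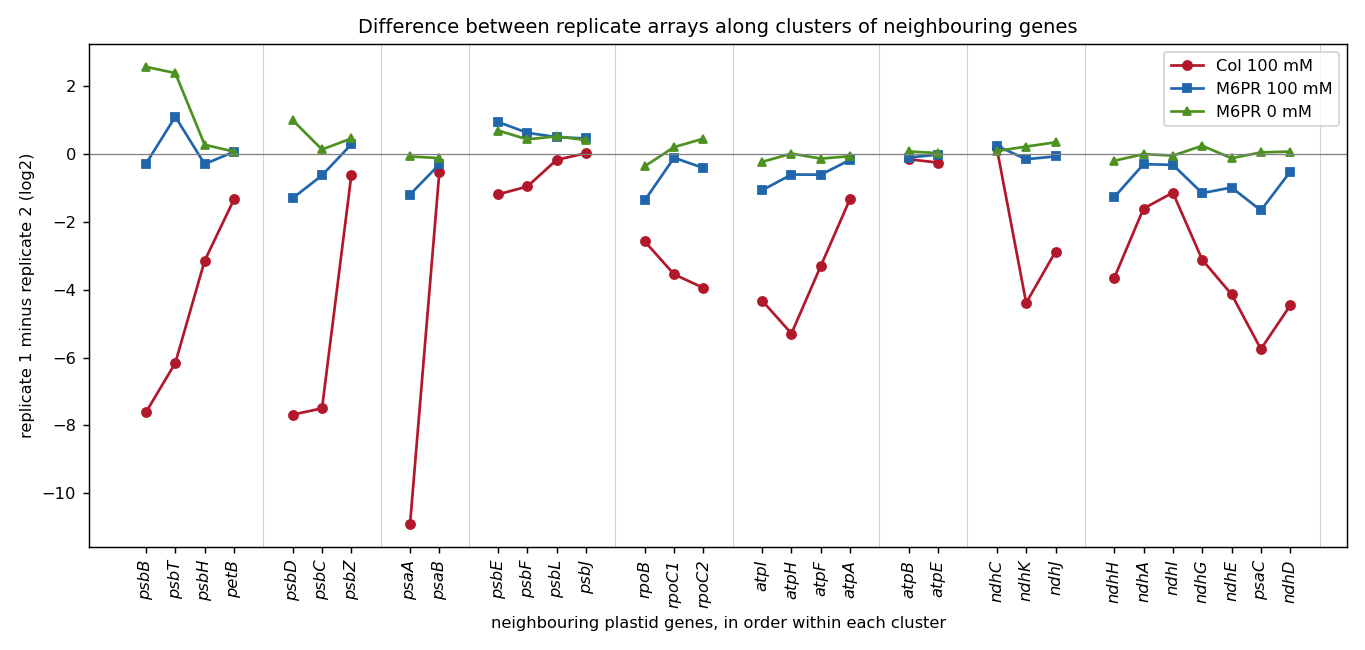
Replicate 1 minus replicate 2 (log2) for genes in order along 9 clusters of neighbouring plastid genes, in Col 100 mM (red circles), M6PR 100 mM (blue squares) and M6PR 0 mM (green triangles). In Col 100 mM the line runs from −10.91 at psaA to 0.16 at ndhC, with steps within clusters, and in M6PR 0 mM psbB and psbT stand out at 2.56 and 2.38.

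The difference was also set beside the brightness of the probe set, which orders probe sets and not transcript amounts. The 7 genes with a mean of 14 or more on the other 7 arrays differed by −1.34 to −0.12, and the 4 between 13 and 14 by −3.15 to −0.32. The 11 genes between 12 and 13 ran from −10.91 (psaA) to 0.33 (rpoA), with a median of −1.61. The 10 genes between 10 and 12 had a median of −4.42 and the 7 between 8 and 10 one of −4.14, while the 6 between 4 and 8 had one of −2.85. Bright probe sets thus held both small and large differences. Those of 14 or more, close to the highest value on any array (15.13), went no further than −1.34 (petB), with atpA (−1.32) and ndhI (−1.14) also beyond 1 log2 unit. The dim genes can only fall as far as the floor, and 9 genes lay below background on Col 100 mM replicate 1. Across the 45 genes the difference and the mean of the other 7 arrays correlated at 0.29 (Pearson) and 0.48 (Spearman). With coding length the values were −0.27 and −0.29.

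**Figure D4:**
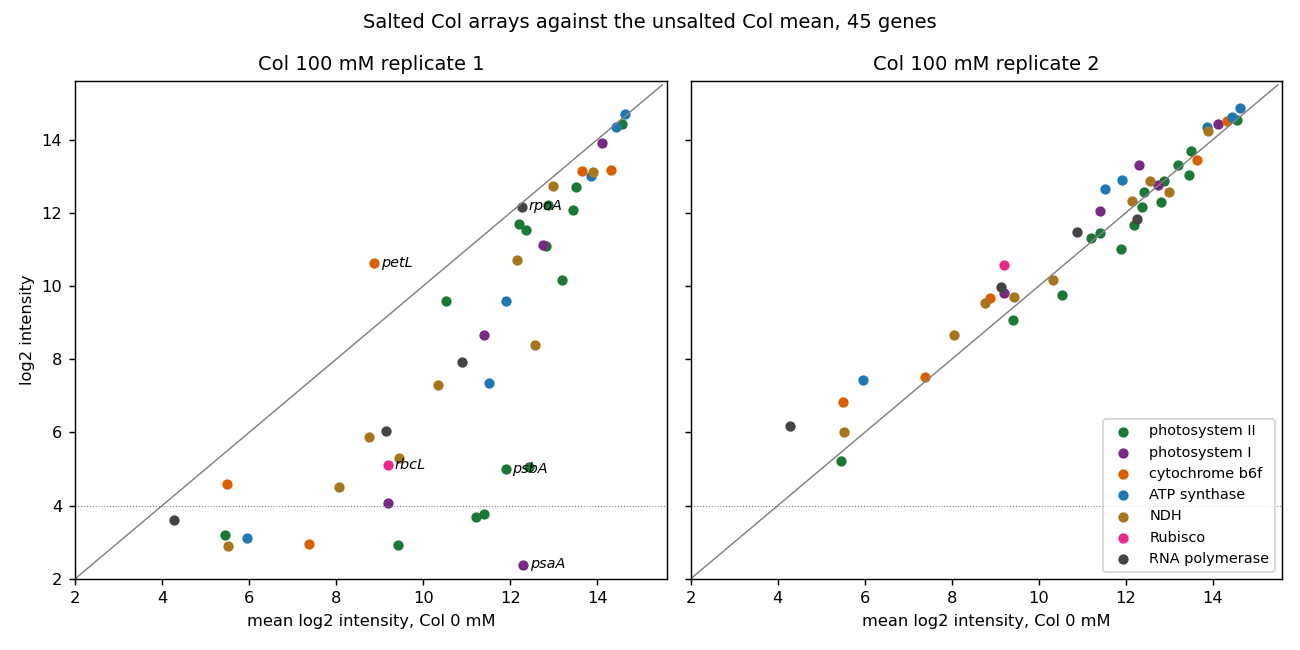
Log2 intensity on Col 100 mM replicate 1 (left) and replicate 2 (right) against the mean of Col 0 mM for the 45 genes, coloured by complex; the grey line marks equal values and the dotted line the background level of 4. On replicate 1 most points fall below the line and petL lies above it, and on replicate 2 all points lie within −0.88 and 1.90 of it.

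Other transcripts were read on the same arrays to set the plastid genes beside. Of the 22 other plastid genes, mostly ribosomal proteins, 21 were above background, and 13 of these were over 1 log2 unit lower on Col 100 mM replicate 1 than on replicate 2 (median −1.68). They included accD, a fatty acid synthesis gene, at −5.01 and the photosystem I assembly genes ycf4 and ycf3 at −4.18 and −3.95, while rps3 was at 0.14. Of all 22746 probe sets, the 100 with the lowest difference held 22 of the 47 genes and 5 of the 22. Of the 11 mitochondrial genes 2 were above background, and nad4 and cox1, of the respiratory chain, differed by −2.06 and −0.97. The 9 nuclear photosynthesis genes with a probe set of their own had a median of 0.07, from −0.72 for the antenna gene LHCB4.2 to 0.77 for ATPC2, and 0 of them were beyond 1. All but LHCB4.3 and ATPC2 read 13.10 or more on every array, a range where most plastid genes also differed less. ATPC2 lay near background, at 4.41 and 3.64 on the salted wild-type arrays. The nuclear and plastid genes are thus not matched for brightness. Of the 9 listed sigma factor and phage-type polymerase genes 1, AT5G15700, was measured on its own probe set, with a mean below background. None of the 13 listed polymerase-associated proteins was measured in this way.

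A control probe set for the 25S ribosomal RNA read 7.70 and 8.59 in Col 0 mM, 2.34 and 7.71 in Col 100 mM, 9.96 and 8.92 in M6PR 0 mM, and 8.98 and 7.08 in M6PR 100 mM. It was near the floor on the array where the plastid genes were low and far above it on the others. On that array the log2 difference between the 3′ and 5′ control probe sets of actin was 3.30, against 2.53 to 2.85 elsewhere, and that of GAPDH 0.25, against −0.22 to 0.18. The one for ubiquitin, 1.24, lay within the 1.01 to 1.29 of the other arrays. The 5′ actin set barely varied (9.20 to 9.27), so the actin difference mainly followed the 3′ set. Second 3′ and 5′ sets read 13.22 and 11.43 for actin on that array, against 12.39 to 12.84 and 11.47 to 11.97 elsewhere. For GAPDH they read 13.61 and 13.48, against 12.91 to 13.21 and 12.93 to 13.27. For ubiquitin they read 13.75 and 13.57, within the 13.69 to 14.09 and 13.31 to 13.83 elsewhere. PYK10 was also at its highest there. The part of these values in the low plastid signals was not tested.

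**Figure D5:**
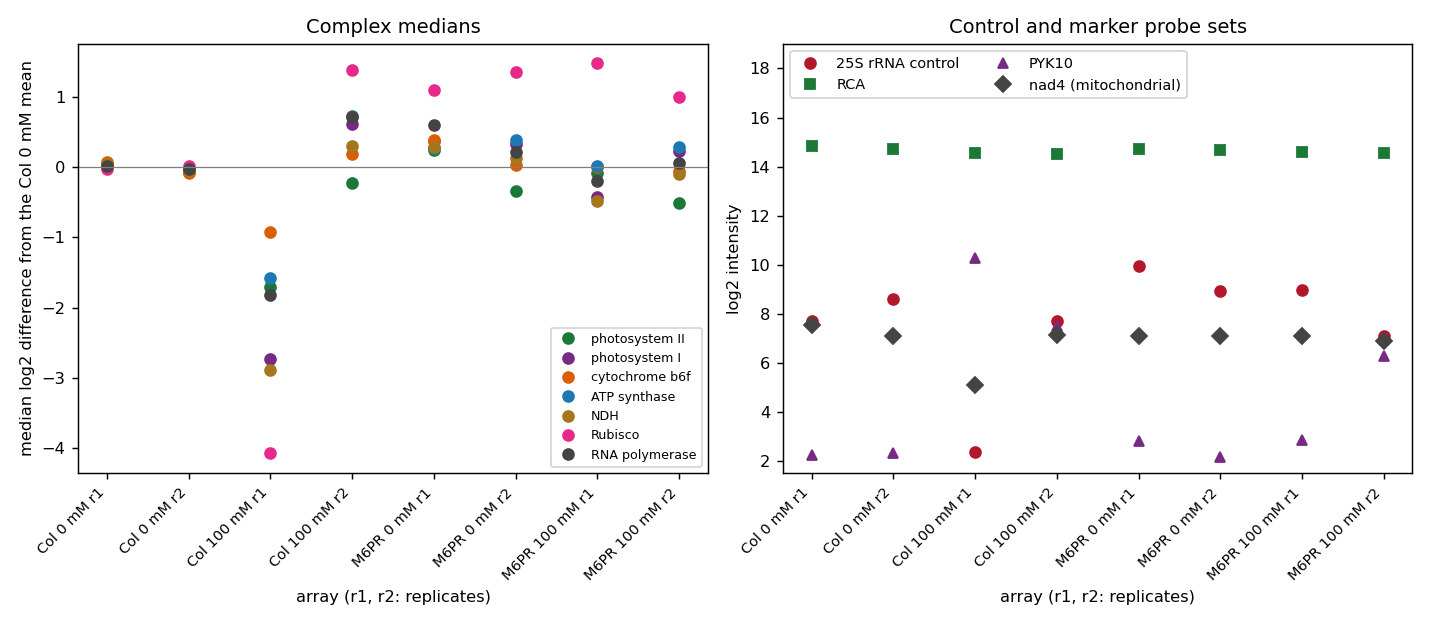
Left: median log2 difference from the Col 0 mM mean for each complex on each array. Right: log2 intensity of the 25S rRNA control, the leaf marker RCA, the root-known PYK10 and mitochondrial nad4 on the same arrays. On Col 100 mM replicate 1 the rRNA control is at 2.34 and PYK10 at 10.28. RCA lies between 14.52 and 14.82 on all arrays, near the top of the scale.

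Salt in the wild type was then tested on all arrays together with limma, with p-values adjusted by the Benjamini-Hochberg method over all 22746 probe sets and a call made at an adjusted p under 0.05. None of the plastid genes passed (0 of 47), against 5.24% of all probe sets, and 2 had an unadjusted p under 0.05, psbL and ndhC. Both lay lower with salt on both arrays: psbL by 0.85 ± 0.26 (SE, adjusted p = 0.129, limma), at 10.65 and 10.41 without salt and 9.59 and 9.76 with it, and ndhC by 0.33 ± 0.11 (SE, adjusted p = 0.138, limma). The median change of the 47 genes was −0.85, against 0 for all probe sets, and by complex −1.11 for photosystem II, −1.05 for photosystem I, −0.35 for cytochrome b6f, −0.42 for the ATP synthase, −1.06 for NDH and −0.70 for the polymerase. All 15 photosystem II genes and all 9 measured NDH genes lay below 0, but some of the 47 genes had errors near or above the size of their change. That of psaA was −4.46 ± 3.70 (SE, adjusted p = 0.535, limma) and that of rbcL −1.34 ± 1.85 (SE, adjusted p = 0.807, limma). For psbA it was −3.90 ± 2.06 (SE, adjusted p = 0.331, limma), and both salted arrays of psbA lay below the unsalted ones.

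Read one at a time, the salted wild-type arrays gave unlike pictures. On replicate 1, 28 of the 47 genes, or 59.6%, lay more than 1 log2 unit below the Col 0 mM mean (9.6% of all probe sets), and 1 gene, petL, lay as far above it (11.8% of all). For 27 genes replicate 1 was the lowest of the 8 arrays by over 1 log2 unit (1.46% of all). On replicate 2, 0 genes lay more than 1 log2 unit below the Col 0 mM mean (6.52% of all). There 5 lay more than 1 above it, or 10.6% (8.89% of all, a like share). These were rpoB (1.90), atpI (1.48), rbcL (1.39), petN (1.32) and atpH (1.13). The complex medians on replicate 1 were −1.71 for photosystem II, −2.74 for photosystem I, −0.92 for cytochrome b6f, −1.58 for the ATP synthase, −2.89 for NDH, −4.08 for rbcL and −1.82 for the polymerase. On replicate 2 they were −0.22, 0.62, 0.18, 0.73, 0.31, 1.39 and 0.72 in the same order. All 5 photosystem I genes and all 6 ATP synthase genes were above the Col 0 mM mean on replicate 2, while 9 of the 15 photosystem II genes were below it. These values were not centred, and the array median was 5.31 on replicate 2 against 5.08 on both Col 0 mM arrays. Some of the genes lay above by little, such as psaJ (0.01), atpE (0.17) and atpB (0.22).

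The count of calls followed the array that was kept. Without Col 100 mM replicate 2, 20 of the 47 genes were called lower with salt (3.82% of all probe sets), and the median change was −1.71. Among them rbcL changed by −4.08 ± 0.26 (SE, adjusted p = 0.00927, limma) and psbA by −6.91 ± 0.51 (SE, adjusted p = 0.0130, limma). With the other one left out instead, 0 were called, 9 had an unadjusted p under 0.05 (8 higher, 1 lower) and the median change was 0.17. Without both arrays that stood apart, Col 100 mM replicate 1 and M6PR 100 mM replicate 1, 5 genes were called higher (4.94% of all), namely petN, atpH, psaA, atpF and ndhI. In such fits the lone salted array is assumed to vary like the other groups. On all arrays, as deposited, for 12 of the 47, or 25.5%, both salted arrays lay below both unsalted ones (25.9% of all, a like share), 8 of them in photosystem II. For 2, petL and atpB, both lay above (23.7% of all).

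Salt in M6PR called 0 of the 47 genes (0.171% of all probe sets), and 0 had an unadjusted p under 0.05 in limma. The smallest adjusted p was that of rpoA, 0.657 (limma), with a change of −0.43 ± 0.21 (SE). The errors of this fit also hold the spread of the Col 100 mM arrays, which are not compared here. For psaA the SE was 3.70, against SDs of 0.05 and 0.85 in the M6PR groups and 7.71 in Col 100 mM. The 0 calls thus say little about genes with such a spread. A fit to the M6PR groups alone also called 0 probe sets. In it 2 of the 47 genes had an unadjusted p under 0.05 in limma, both lower with salt (1975 of all 22746 probe sets, in either direction). The changes leaned one way: of the 45 measured genes 44 were below 0, with rbcL at 0.01, and the median change of the 47 was −0.29. After a further quantile normalization 41 were below 0, and after centring on array medians 45 were. For 19 of the 47 genes, or 40.4%, both salted arrays lay below both unsalted ones (15.7% of all probe sets). These were 7 NDH genes, 4 of the 5 photosystem I genes, 3 of the 4 polymerase genes, 2 each of the ATP synthase and photosystem II, and petB. Replicate 1 had the larger differences from the M6PR 0 mM mean in photosystem I (median −0.67, against −0.20 on replicate 2), NDH (−0.68 and −0.27), the polymerase (−0.59 and −0.31) and the ATP synthase (−0.42 and −0.03), and replicate 2 had them in photosystem II (−0.07 and −0.36) and cytochrome b6f (−0.11 and −0.28). For rbcL the values were 0.25 and −0.23. The difference of SAG101 with salt in M6PR was −1.07 ± 0.15 (SE, adjusted p = 0.119, limma), and PYK10 was at 6.27 on replicate 2; their part in these values was not tested. Without M6PR 100 mM replicate 1 the median change was −0.28, with 40 genes below 0.

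Without salt, most of these genes had a slightly higher mean in M6PR than in Col. The test called 0 of the 47 (7.03% of all probe sets), with a single unadjusted p under 0.05, for atpB, higher in M6PR by 0.19 ± 0.07 (SE, adjusted p = 0.249, limma). The median difference was 0.20, and 35 of the 45 measured genes were above 0 (34 after a further quantile normalization and 35 after centring). The complexes were not alike: all measured genes of photosystem I (5), cytochrome b6f (5), the ATP synthase (6) and the polymerase (4) were above 0, as were 8 of 9 of NDH, but 6 of 15 of photosystem II. The largest differences were 1.23 for rbcL, 1.22 for petL, 1.08 for petN and 0.93 for atpI, and the lowest −1.03 for psbB, −0.91 for psbT and −0.74 for psbA. The photosystem II values differed between the M6PR 0 mM arrays: 13 of the 15 genes lay above the Col 0 mM mean on replicate 1 (median 0.24) and 2 on replicate 2 (median −0.34). On replicate 2 psbB and psbT lay −2.32 and −2.10 from that mean. SAG101, the senescence marker, was called higher in M6PR here, at 6.74 and 6.32 against 5.29 and 5.15 in Col (1.31 ± 0.15, SE, adjusted p = 0.0208, limma), and its part in these values was not tested. For 23 of the 47 genes, or 48.9%, both M6PR arrays lay above both Col arrays (18.1% of all), and for 1, psbA, both lay below (26% of all). The errors of the fit to all arrays also hold the difference between the Col 100 mM replicates, and there the SE was 3.70 for psaA and 1.79 for atpH. With only the 4 unsalted arrays in the fit, 16 of the 47 genes had an unadjusted p under 0.05 in limma, all higher in M6PR. Of all 22746 probe sets 5311 did so in either direction. In that fit 3 genes were called higher in M6PR (2.99% of all): psaA by 0.85 ± 0.04 (SE, adjusted p = 0.0354, limma), atpH by 0.61 ± 0.02 (SE, adjusted p = 0.0239, limma) and petN by 1.08 ± 0.05 (SE, adjusted p = 0.0336, limma). This comparison shares the Col 0 mM arrays with that of salt in the wild type, where the same 3 genes stood 0.997, 1.13 and 1.32 above the Col 0 mM mean on Col 100 mM replicate 2.

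With salt, M6PR lay above Col in 42 of the 45 measured genes, and the comparison again rested on the salted wild-type arrays. No gene passed the test (0 of 47, with 0.136% of all probe sets called), 0 had an unadjusted p under 0.05 in limma, and the median difference was 0.63. By complex it was 0.95 for photosystem II, 1.34 for photosystem I, 0.47 for cytochrome b6f, 0.51 for the ATP synthase, 0.81 for NDH, 0.61 for the polymerase and 2.58 for rbcL. Without Col 100 mM replicate 2, 17 genes were called higher in M6PR (1.88% of all) and the median was 1.70. Without replicate 1 instead, 0 were called (5 at an unadjusted p under 0.05 in limma, all lower: atpA, atpF, ndhK, psaI and rpoC1) and the median was −0.26. Without both arrays that stood apart 1 gene, atpH, was called lower in M6PR (1.71% of all). For 4 genes, psbJ, psbL, petA and ndhC, or 8.51%, both M6PR arrays lay above both Col arrays (15.4% of all).

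The difference between the salt responses of the lines (the interaction, M6PR minus Col) was called for 0 of the 47 genes (1.45% of all probe sets). The only unadjusted p under 0.05 was that of petL, at −2.14 ± 0.77 (SE, adjusted p = 0.258, limma), whose change with salt was 1.27 in Col and −0.87 in M6PR and passed the test in neither line. The median was 0.40. It was 1.60 with 13 genes called higher (1.66% of all) without Col 100 mM replicate 2, and −0.51 with 0 called and 12 at an unadjusted p under 0.05 without replicate 1. Without both arrays that stood apart atpH was called lower (2.46% of all).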

How the data were processed

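The authors deposited log2 intensities, 1 per probe set and array, and per the submitters' processing notes these were made with GCOS and RMA, whose versions are not given in the sources used here. All arrays share a lowest value, and 27.9% to 29.2% of each array is within 0.01 of it, so low values cannot show a fall. Titles gave each sample its group, and the replicates are pots. The p-values rest on 1 spread per gene, taken between the replicate arrays of all groups in the fit. Pot and array cannot be told apart in that spread. The 64 controls of the array entered no test. Gene names came from the array's annotation table and, for 13436 of 13513 probe sets with 1 gene, from RefSeq TAIR10.1, which also gave the order of plastid genes. A linear model with a mean per group was fitted to all 22746 probe sets with limma 3.58.1 in R 4.3.3 (4 residual and 0.409 prior degrees of freedom). It was also run on simulated data with an equal spread in all groups, which the plastid genes here do not have. The level of 4 taken as background was chosen after the values were seen, and a fold against a lower value is a bound. The members, lists and comparisons were chosen with earlier results of these data known. Genes given by array are rbcL, psbA, psbD, psaA, petB, atpB, the rpo genes (ndhB had no probe set of its own), and the largest rise and fall of each complex with salt in Col; others named were chosen after their values were seen. Alternatives were a filter on the dimmest 25% of probe sets, quantile normalization, centring, another variance prior, the replicate number as a blocking term, a fit of the compared arrays alone, and leaving out each array. Exact permutation of 2 against 2 arrays cannot go below p = 0.333.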

Additional observations from a re-analysis of the deposited data

How the results depend on the processing

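Centring shifted the median of all probe sets by −0.22 for salt in Col and by 0.20 for M6PR against Col with salt and for the interaction, and it turned the median replicate difference of M6PR 100 mM from −0.16 to 0.036. Leaving out arrays gave 0 to 20 called genes for salt in Col, 0 to 3 for M6PR against Col without salt, 0 to 17 with salt, and 0 to 13 for the interaction. The 20, 17 and 13 came without Col 100 mM replicate 2. The median change then ranged from −1.71 to 0.17 for salt in Col and from −0.26 to 1.70 for M6PR against Col with salt. For the interaction it ranged from −0.51 to 1.60. In all 3 the sign turned wherever Col 100 mM replicate 1 was out. The array median was 5.31 on Col 100 mM replicate 2 and 5.08 on both Col 0 mM arrays, and these fits were not repeated after centring. The sign of the 0.17 is thus not settled. Without M6PR 0 mM replicate 1, ndhF, at the floor, was called higher in unsalted M6PR by 0.05. With only the arrays compared 3 genes were called without salt. Leaving out both arrays that stood apart, an alternative chosen after seeing the data, turned atpH to 1.13 and psaA to 0.997 for salt in Col, and atpH to −0.46 for M6PR against Col with salt and −1.07 for the interaction. Without Col 100 mM replicate 2 atpH was at −4.16 and psaA at −9.91 for salt in Col, and atpH at 4.53 for M6PR against Col with salt and 3.92 for the interaction. Without Col 100 mM replicate 1 the latter 2 were −0.76 and −1.38. Replicate differences correlated at 0.49 between the M6PR groups and at −0.15 to 0.08 between other groups, and the labels name no shared batch, so the numbers were not taken as pairs over the whole series. A replicate block gave 0 called genes in all 5 comparisons. Averaging the probe sets of a gene was not run because each gene has 1. With 2 arrays per group the spread is known poorly, and depth is not defined for arrays.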
